A study of Mus musculus with 40 samples.

Results

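Genes of focal adhesions and integrin signaling were followed in CD11b+ cells sorted from mouse gliomas, namely Ptk2, Ptk2b, Src, Tln1, Fermt3, Ilk, Parvg, Pxn, Vcl and Zyx. They were chosen by name, as 10 of the 54513 rows that each of the 3 deposited expression tables holds, and all 10 were found in every table. The study asked whether 7aaRGD, a peptide made to block the binding of SPP1 and MFG-E8 to integrins, changes glioma-associated myeloid cells. Its control 7aaRAE carries RAE in place of the RGD motif. GL261, a murine glioma line carrying tdTomato and luciferase, was implanted in the striatum of young adult male C57BL/6 mice, and U87-MG, a human glioblastoma line carrying RFP, in athymic nude mice, which lack mature T cells. Water (vehicle) or a peptide at 2 mg/ml was delivered into the tumor by osmotic pump.

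At 21 days post-implantation (21 DPI) the GL261 experiment held naive C57BL/6 mice without tumor or pump and tumor-bearing mice given vehicle, 7aaRGD or 7aaRAE, with 3 samples per group. The U87-MG experiment at 21 DPI held vehicle, 7aaRGD and 7aaRAE with 3 samples each. Each sample at 21 DPI was a pool of 2 animals. At 28 DPI, GL261-bearing mice received vehicle (4 samples), 7aaRGD (4 samples), anti-PD-1 at 10 mg/kg with water pumps (3 samples) or 7aaRGD + anti-PD-1 (3 samples), with 1 mouse per sample, and mice without the antibody received control IgG. The sample labels name nude mice for 28 DPI where the study's methods name C57BL/6, so the strain of these mice is uncertain here. A further 5 labelled samples (naive nude mice and the fourth of each antibody group) are not analysed here.

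Integrins are receptors that link the extracellular matrix to actin. On the inner side of the membrane, talin and kindlin bind the integrin tail and switch it on, the ILK-parvin complex and vinculin tie it to actin filaments, and paxillin gathers the kinases FAK, PYK2 and SRC, which pass the signal on. Zyxin joins adhesions under tension. Leukocytes use their own versions of several parts, among them kindlin-3, gamma-parvin and PYK2, and in microglia and macrophages this machinery serves migration, phagocytosis and the response to RGD-containing matrix proteins.

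Values are RPKM, a read count scaled by exon length and by library size, so levels can be set against each other between genes. The number of reads per sample is unknown. In both GL261 tables the differences between replicates spanned 1 dimension less than the samples allow (7 of 8 at 21 DPI and 9 of 10 at 28 DPI), so that replicates may vary less here than the mice did, and in the U87-MG table all 6 were present. All 6 myeloid genes used to check the sort (Itgam, Ptprc, Csf1r, Aif1, Cx3cr1 and Tyrobp) passed 1 RPKM in every group. The groups differed in other markers. The summed level of 7 microglia genes (such as Tmem119 and P2ry12) was 13416 to 13753 RPKM in naive samples and 1128 to 1632 RPKM in vehicle samples at 21 DPI, and that of 7 monocyte and macrophage genes (such as Ccr2 and Lyz2) was 387 to 421 RPKM and 5209 to 5966 RPKM. Lyz2 alone made up most of the monocyte and macrophage sum. Its mean was 388 of 409 RPKM in naive samples and 4111 of 5620 RPKM in vehicle samples, so this sum mainly follows Lyz2. In such bulk samples, fewer cells of a type and less RNA per cell cannot be told apart. Samples in U87-MG carry no number in the table, and its second 7aaRGD and second 7aaRAE columns, counted in the order of the table, lay farthest from their group means.

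In vehicle samples of GL261 at 21 DPI, Tln1, the main leukocyte talin, stood highest at 122 ± 3.30 RPKM (SD, n = 3). It was followed by Zyx (zyxin) at 87.8 ± 6.47 RPKM and Fermt3 (kindlin-3) at 71.8 ± 4.58 RPKM. Parvg (gamma-parvin) at 50.8 ± 3.33 RPKM and Ilk (integrin-linked kinase, a pseudokinase) at 48.6 ± 5.20 RPKM overlapped in their samples. Ptk2b (PYK2), Pxn (paxillin) and Src came next with means of 37.7, 23.5 and 21.0 RPKM, and the samples of the last 2 overlapped. Vcl (vinculin) ranged from 2.05 to 2.99 RPKM and Ptk2 (FAK) from 0.189 to 0.320 RPKM. Of the FAK family pair, PYK2 was therefore the well-expressed member in these cells, and FAK stayed under a mean of 1 RPKM in all 11 groups.

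**Figure D1:**
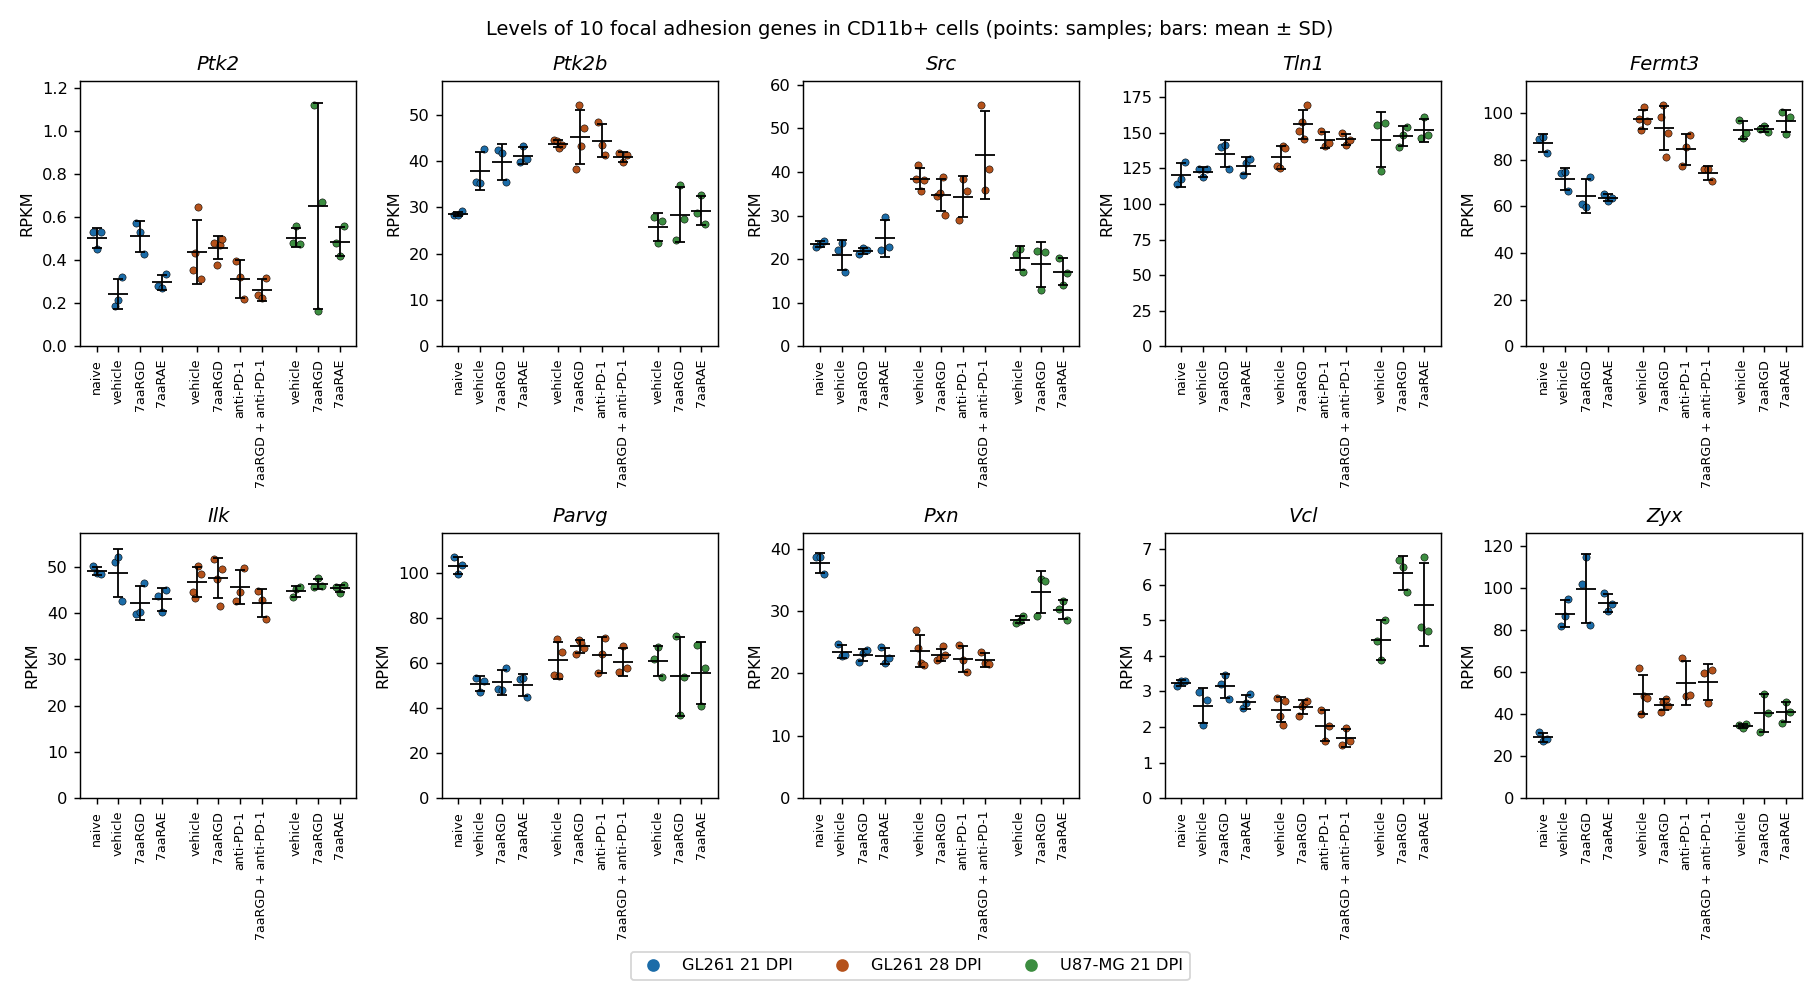
RPKM (linear axes from 0) of the 10 genes by group in the 3 experiments, which were normalized separately. Points are samples and bars the mean ± SD of the 3 or 4 samples of a group; naive samples at 21 DPI lie apart from tumor-bearing samples for Zyx (27.4 to 31.4 RPKM), Parvg (99.5 to 107 RPKM) and Pxn (35.9 to 38.7 RPKM).

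The first comparison asked how adhesion genes differ between CD11b+ cells of GL261 tumors and of naive brains. Zyx was higher and Parvg and Pxn were lower in the tumor samples, with smaller differences in Ptk2b, Fermt3 and Vcl. With limma on log2(RPKM + 1) and Benjamini-Hochberg adjustment over all genes tested, 6 of the 9 members tested passed an adjusted p of 0.05 (2 higher, 4 lower), beside 82.9% of the 9722 protein-coding genes whose mean reached 1 RPKM. The same 6 members had groups that did not overlap, beside 85.4% of all genes. The members' shares were not above these backgrounds. The median log2 fold change was -0.16 over the 9 members and -0.14 over all genes.

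Zyxin, at chr6:42349630-42360213 (mm10, plus strand), measured 31.4, 27.4 and 28.0 RPKM in the naive samples and 81.8, 86.9 and 94.7 RPKM in the vehicle samples. Every vehicle sample was more than 2 times the highest naive sample. The log2 fold change was 1.57 ± 0.08 (SE; limma adjusted p = 3.88e-07). Zyxin levels in the other tumor-bearing samples of this experiment, 82.2 to 115 RPKM, lay in the same high range.

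Gamma-parvin, the leukocyte parvin, at chr15:84324026-84342978 (plus strand), went the other way. It measured 107, 99.5 and 104 RPKM in naive samples against 53.4, 47.0 and 52.0 RPKM in vehicle samples, so the groups lay far apart. Its log2 fold change was -1.01 ± 0.06 (SE; limma adjusted p = 1.75e-06). Its partner Ilk (chr7:105736592-105742925) measured 48.5 to 50.2 RPKM in naive and 42.6 to 52.2 RPKM in vehicle samples, and no difference was detected (log2 fold change -0.02 ± 0.08).

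Paxillin, the scaffold on which adhesion kinases gather, at chr5:115506676-115555987 (plus strand), measured 38.7, 38.6 and 35.9 RPKM in naive samples and 24.7, 22.8 and 22.9 RPKM in vehicle samples. All naive samples were above all vehicle samples, and the log2 fold change was -0.66 ± 0.06 (SE; limma adjusted p = 1.15e-05). Among the kinases, Ptk2b (chr14:66153257-66281052, minus strand) measured 28.4, 28.4 and 29.1 RPKM in naive samples and 35.5, 35.3 and 42.5 RPKM in vehicle samples. PYK2 message was thus higher with tumor, by 0.38 ± 0.08 on the log2 scale (limma adjusted p = 0.00186). Src (chr2:157418444-157471862) overlapped between groups, at 22.8 to 24.1 RPKM and 17.1 to 23.8 RPKM (log2 fold change -0.16 ± 0.11).

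Of the integrin activators, kindlin-3 measured 89.1, 89.7 and 82.9 RPKM in naive samples and 74.2, 74.8 and 66.5 RPKM in vehicle samples. The log2 fold change of Fermt3 was -0.28 ± 0.07 (limma adjusted p = 0.00430). Talin (Tln1, chr4:43531519-43562691) measured 114 to 130 RPKM and 119 to 124 RPKM, and its log2 fold change was 0.03 ± 0.06. The calls of the smaller differences depended on scaling: with median-of-ratios factors, which raised the median log2 fold change of all genes by 0.15, Fermt3 no longer passed (log2 fold change -0.10, adjusted p = 0.201), Tln1 did (0.20, adjusted p = 0.0144), and the split of members became 3 higher and 2 lower. Over all genes that split was 3366 higher and 4690 lower, and 3980 and 3899 with these factors. Vcl measured 3.15 to 3.29 RPKM in naive and 2.05 to 2.99 RPKM in vehicle samples (log2 fold change -0.25 ± 0.10, adjusted p = 0.0487). Its call was lost on leaving out any of the 6 samples but vehicle replicate 1, with adjusted p-values from 0.0508 to 0.116, and its log2 fold change without vehicle replicate 2 was -0.13. The shifts in microglia and monocyte marker sums given above move with this comparison, and their part in it was not tested.

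FAK itself was too low for the test over expressed genes. Ptk2 (chr15:73205102-73423280, minus strand) measured 0.530, 0.452 and 0.533 RPKM in naive samples and 0.189, 0.217 and 0.320 RPKM in vehicle samples. In a fit of all protein-coding genes without a filter on low values, its log2 fold change was -0.28 ± 0.05 (limma adjusted p = 0.00325). At these levels a value can rest on few reads, and their number is unknown.

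The sequence just before a RefSeq transcription start was taken from RefSeq (build GRCm38.p6) for members whose calls the comparisons turn on; 7 of the 10 genes had an entry. The 250 bases before the start are shown for Vcl and Fermt3, the members called at 28 DPI, in windows that hold no annotated exon, and 30 bases around a match are shown for Zyx, the member with the largest difference. The regions are chr14:20929148-20929397 (plus strand), chr19:7019470-7019719 (minus strand) and chr6:42349695-42349724 (plus strand), each written 5′ to 3′. Capitals mark matches on either strand to the CArG box bound by SRF, to TGANTCA (AP-1), to GAGGAAGT (PU.1-type) or to GGGCGG (Sp1), motifs picked after the sequences had been seen; 2 of the Sp1 matches of Vcl overlap.
Vcl: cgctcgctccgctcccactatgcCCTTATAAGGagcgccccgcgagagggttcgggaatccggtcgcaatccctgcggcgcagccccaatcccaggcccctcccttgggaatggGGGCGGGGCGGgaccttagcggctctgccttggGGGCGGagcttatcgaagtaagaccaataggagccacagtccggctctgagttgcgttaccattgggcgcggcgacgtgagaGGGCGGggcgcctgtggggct
Fermt3: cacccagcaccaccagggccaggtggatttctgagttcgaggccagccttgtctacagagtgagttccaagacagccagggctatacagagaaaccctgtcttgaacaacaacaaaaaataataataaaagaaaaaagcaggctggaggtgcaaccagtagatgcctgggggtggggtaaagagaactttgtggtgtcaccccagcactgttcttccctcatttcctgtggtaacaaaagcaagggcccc
Zyx: gagtgcggacagTGAGTCAgttctccagca
The Vcl window held 1 CArG box, at -227 to -218 from the start. At least 1 CArG box is held by 1.47% of all 32851 promoter windows of this length. The Vcl window also held 4 Sp1 matches. At least 1 Sp1 match is held by 32.7% of windows, and the share that holds 4 was not counted. The Zyx stretch held an AP-1 match at -121 to -115 from the start, as did 6.75% of all windows. GENCODE places the 5′ end of Zyx upstream of this stretch, at base 42349630, and counts 122 of the 250 bases before the RefSeq start as exon of Zyx. The Fermt3 window held none of the 4, among them the PU.1-type letters found in 2.44% of windows. These matches are letters in a window and were not tested for binding.

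The effect of the peptides at 21 DPI was asked next, with 7aaRGD and 7aaRAE each compared with vehicle in GL261. No tested member passed in either comparison. For 7aaRGD, 0 of 9 members were called by limma, beside 0.148% of all 9436 genes. At an unadjusted p of 0.05, 0 members passed, beside 13.5% of genes. The groups overlapped for all 9, while 17.6% of all genes had groups that did not overlap. For 7aaRAE, 0 of 9 were called, beside 0% of all genes, and 0 passed the unadjusted threshold, beside 6.36% of genes. There 1 member did not overlap, beside 12.6% of all genes.

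The largest estimates for 7aaRGD against vehicle were in Vcl and Ilk. Vinculin measured 3.20, 3.45 and 2.80 RPKM with 7aaRGD and 2.99, 2.05 and 2.75 RPKM with vehicle (log2 fold change 0.21, 95% confidence interval -0.02 to 0.44). Ilk measured 39.9, 40.2 and 46.5 RPKM against 51.0, 52.2 and 42.6 RPKM (log2 fold change -0.20, interval -0.41 to 0.01). The groups overlapped in both genes, and for Ilk the third sample of each group lay on the side of the other group. Src measured 21.1 to 22.5 RPKM with 7aaRGD and 17.1 to 23.8 RPKM with vehicle (0.07 ± 0.13), and Pxn 21.9 to 23.8 RPKM and 22.8 to 24.7 RPKM (-0.03 ± 0.06). Kindlin-3 measured 61.1, 59.7 and 72.8 RPKM with 7aaRGD and 65.5, 62.3 and 63.5 RPKM with 7aaRAE, against 66.5 to 74.8 RPKM with vehicle. It was the 1 member whose 7aaRAE samples all lay below vehicle (log2 fold change -0.17 ± 0.08, limma adjusted p = 0.718). The other tested members lay between -0.17 (Ilk) and 0.23 (Src) with 7aaRAE. Zyxin and gamma-parvin, which differed most between tumor and naive brain, had log2 fold changes of 0.17 ± 0.11 and 0.02 ± 0.10 with 7aaRGD.

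FAK message again fell under the filter. As between naive and vehicle samples, its values did not overlap between 7aaRGD and vehicle. Ptk2 measured 0.571, 0.531 and 0.428 RPKM with 7aaRGD and 0.278, 0.273 and 0.338 RPKM with 7aaRAE, against 0.189, 0.217 and 0.320 RPKM with vehicle. The 7aaRGD samples lay above all samples of both other tumor groups, a ratio of means of 2.11 to vehicle. Without a filter the log2 fold change against vehicle was 0.28 ± 0.05 (limma adjusted p = 0.0762), so it did not pass. The adjusted p lay between 0.0358 and 0.336 over 14 alternatives of this fit, and it was under 0.05 in 1 of them, which left out vehicle replicate 3 (log2 fold change 0.33). Against 7aaRAE it was 0.22 ± 0.05 (adjusted p = 0.212). In the other experiments Ptk2 overlapped between 7aaRGD and vehicle, at 0.379 to 0.500 RPKM and 0.311 to 0.646 RPKM at 28 DPI. In U87-MG the 7aaRGD columns measured 1.12, 0.162 and 0.671 RPKM and the vehicle columns 0.477 to 0.557 RPKM.

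The 2 peptides, which differ in the RGD or RAE residues, were compared directly at the same dose and day in both tumor models, as 2 matched comparisons with p-values adjusted over all genes tested. In GL261, 0 of 9 members were called by limma, beside 0% of all genes, and 0 passed an unadjusted p of 0.05, beside 5.51%. The groups did not overlap in 0 members, beside 11.4% of genes. In U87-MG the counts were 0 and 0, beside 0% and 3.38% of genes, with 0 members without overlap, beside 6.46% of genes. The width of the intervals sets what could be seen. For Tln1 in GL261 the difference was 0.09 on the log2 scale (95% confidence interval -0.07 to 0.25) and for Src -0.16 (-0.46 to 0.14). For Parvg in U87-MG it was -0.05 (-0.61 to 0.50) and for Vcl 0.20 (-0.10 to 0.50). Differences within these intervals could not be told from 0 with 3 samples per group.

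**Figure D2:**
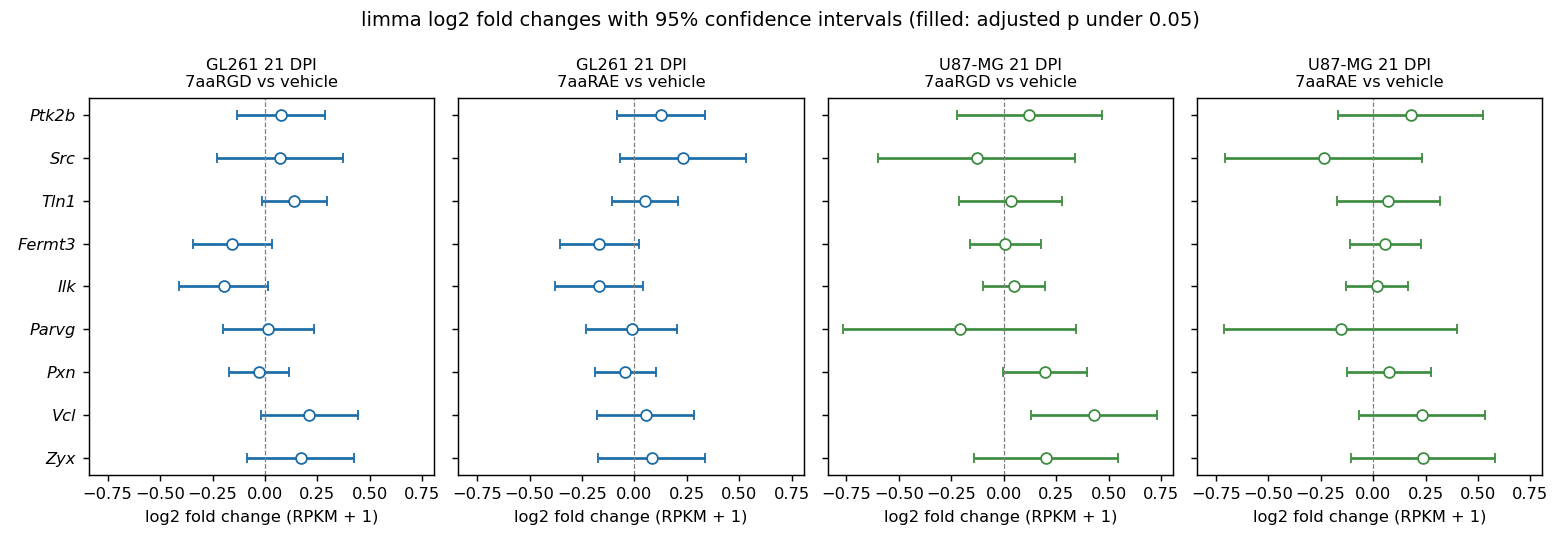
Log2 fold changes on the log2(RPKM + 1) scale of the 9 tested members (points) with 95% confidence intervals (bars) for 7aaRGD and 7aaRAE against vehicle in GL261 and U87-MG at 21 DPI. All points are open, since none passed an adjusted p of 0.05; in U87-MG the interval of Vcl with 7aaRGD runs from 0.13 to 0.73.

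In U87-MG gliomas, the same peptides were compared with vehicle in nude mice. For 7aaRGD, 0 of 9 members were called by limma, beside 0% of all 9659 genes. At an unadjusted p of 0.05, 1 member, Vcl, passed, beside 3.77% of genes. For 2 members the groups did not overlap, beside 10.8% of genes. For 7aaRAE, 0 of 9 were called, beside 0.0104% of genes, and 0 passed the unadjusted threshold, beside 7.72% of genes. There 1 member, Zyx, did not overlap, beside 16.5% of genes. Vinculin measured 6.68, 6.50 and 5.79 RPKM with 7aaRGD against 4.42, 3.89 and 5.01 RPKM with vehicle. All 7aaRGD columns were above all vehicle columns, with a log2 fold change of 0.43 ± 0.13 and a limma adjusted p of 0.941. With 7aaRAE, Vcl measured 4.82, 6.78 and 4.71 RPKM, overlapping both. Ilk was the other member without overlap, at 45.6 to 47.6 RPKM against 43.4 to 45.6 RPKM with the closest columns nearly equal, a log2 fold change of 0.05 ± 0.07.

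The second column of each peptide group was the highest or the lowest of its group in several members. Gamma-parvin measured 72.1, 37.0 and 53.8 RPKM with 7aaRGD and 68.0, 40.8 and 58.0 RPKM with 7aaRAE, against 53.9 to 67.2 RPKM with vehicle, so the second column was lowest in each peptide group. Zyxin showed the reverse, at 31.3, 49.3 and 40.4 RPKM with 7aaRGD and 36.0, 45.7 and 41.1 RPKM with 7aaRAE, against 33.2 to 35.3 RPKM with vehicle. Src was lowest in the same columns, at 12.9 and 14.1 RPKM, and Ptk2b highest, at 34.8 and 32.6 RPKM. Ptk2 was also lowest there, at 0.162 and 0.421 RPKM, and Pxn highest, at 35.1 and 31.6 RPKM. Against vehicle, the log2 fold change of Pxn was 0.20 ± 0.09 with 7aaRGD and 0.07 ± 0.09 with 7aaRAE, and that of Fermt3 0.01 ± 0.07 and 0.06 ± 0.07. Without both of these columns, 0 of 9 members were called in each of the 3 comparisons. The monocyte and macrophage sum ranged from 1514 to 4244 RPKM over the 7aaRGD columns and from 1606 to 2750 RPKM with vehicle. Most of it was Lyz2, with means of 2473 of 2887 RPKM and 1834 of 2131 RPKM. The part of this sum in these values was not tested.

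At 28 DPI the question was whether 7aaRGD, anti-PD-1 or both together change the same genes in GL261. With 7aaRGD alone, 0 of 9 members were called by limma, beside 0.647% of all 9732 genes. At an unadjusted p of 0.05, 1 member, Tln1, passed, beside 14.6% of genes. The groups did not overlap for that member, beside 8.0% of genes. Talin measured 151, 158, 146 and 169 RPKM with 7aaRGD against 126, 125, 140 and 139 RPKM with vehicle. Every 7aaRGD sample was above every vehicle sample, with a log2 fold change of 0.23 ± 0.06 and an adjusted p of 0.116. In anti-PD-1 and combination samples Tln1 measured 141 to 151 RPKM and 142 to 150 RPKM, also above the vehicle samples (log2 fold changes 0.13 ± 0.07 in each; adjusted p = 0.186 and 0.130). With median-of-ratios factors the combination value was 0.19 with an adjusted p of 0.0216.

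With anti-PD-1 alone, 0 of 9 members were called by limma, beside 23.1% of genes. At an unadjusted p of 0.05, 1 member, Fermt3, passed, beside 36.2% of genes, and 2 members did not overlap, beside 32.5% of genes. With the combination, 2 of 9 were called, both lower, beside 43.3% of genes, and 4 did not overlap, beside 48.8% of genes. Over these 9 the median log2 fold change with the combination was -0.08, and -0.05 over all genes. The members' shares were not above the background in either comparison. Over all genes the combination gave 1706 higher and 2508 lower calls, and 2184 and 2109 with median-of-ratios factors.

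Kindlin-3 and vinculin were the members that fell with the combination. Kindlin-3, which with talin switches on the integrins of blood-derived cells (Fermt3, chr19:6998958-7019469), measured 97.3, 92.9, 103 and 96.6 RPKM with vehicle and 76.2, 75.9 and 71.0 RPKM with 7aaRGD + anti-PD-1. The groups did not overlap, and the log2 fold change was -0.38 ± 0.08 (limma adjusted p = 0.00225). The single treatments gave 98.4, 103, 81.4 and 91.5 RPKM with 7aaRGD and 77.4, 85.4 and 90.6 RPKM with anti-PD-1, and the anti-PD-1 samples lay below vehicle without passing (-0.20 ± 0.08, adjusted p = 0.0891).

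Vinculin, which ties talin to actin (Vcl, chr14:20929398-21033676), measured 2.82, 2.31, 2.07 and 2.73 RPKM with vehicle and 1.50, 1.98 and 1.60 RPKM with the combination. All combination samples were below all vehicle samples, and the difference was -0.37 ± 0.11 on the log2 scale (adjusted p = 0.0132). Anti-PD-1 alone gave 2.48, 1.62 and 2.02 RPKM and 7aaRGD alone 2.30 to 2.72 RPKM. The call was lost without combination replicate 1 (-0.32, adjusted p = 0.0616). The monocyte and macrophage sum was 5702 to 7563 RPKM with the combination and 3936 to 5811 RPKM with anti-PD-1. It was 2636 to 3085 RPKM with vehicle and 2337 to 3066 RPKM with 7aaRGD. Most of it was Lyz2, with means of 6232 of 6794 RPKM with the combination and 2691 of 2910 RPKM with vehicle. The part of this sum in the Fermt3 and Vcl values was not tested. Summed markers of NK cells (16.5 to 59.9 against 2.02 to 7.92 RPKM), dendritic cells (12.4 to 16.6 against 1.00 to 2.86 RPKM), T cells (2.75 to 6.02 against 0.654 to 1.30 RPKM), endothelium (14.3 to 21.3 against 4.47 to 10.8 RPKM) and oligodendrocytes (7.09 to 10.1 against 4.53 to 6.65 RPKM) were also higher with the combination than with vehicle, without overlap, and their part was not tested either. With the combination, a mean of 1 RPKM was reached by 2 of 5 endothelial, 2 of 4 oligodendrocyte and 2 of 6 T cell genes. It was reached by 4 of 5 NK cell and 4 of 6 dendritic cell genes. Pecam1 led the endothelial sum (mean 8.87 of 17.8 RPKM) and Mag the oligodendrocyte sum (5.38 of 8.31 RPKM). The microglia sums overlapped, at 1835 to 1997 RPKM with the combination and 1294 to 1860 RPKM with vehicle.

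The same members were lower when the combination was compared with 7aaRGD alone, where 2 of 9 were called beside 36.6% of genes and 2 did not overlap beside 40.4%. Over all genes the calls were 1268 higher and 2292 lower, and 1693 and 1627 with median-of-ratios factors. The log2 fold change was -0.41 ± 0.11 for Vcl (limma adjusted p = 0.00966) and -0.32 ± 0.08 for Fermt3 (adjusted p = 0.00821). This comparison shares its combination samples with the one above. Against anti-PD-1 alone, 0 of 9 members were called by limma, beside 0.0411% of genes. At an unadjusted p of 0.05, 1 member, Src, passed, beside 15.0% of genes. The groups did not overlap for 1 member, Fermt3, beside 21.5% of genes. The log2 fold change of Fermt3 there was -0.18 ± 0.09 (adjusted p = 0.358). The interaction term asks whether the combination departs from the sum of both single treatments. It called 0 of 9 members, beside 0% of genes. At an unadjusted p of 0.05, 2 members passed, beside 8.16% of genes. These were Src (0.48 ± 0.19, adjusted p = 0.587) and Tln1 (-0.23 ± 0.10, adjusted p = 0.599). Src measured 55.3, 35.9 and 40.7 RPKM with the combination, against 35.7 to 41.5 RPKM with vehicle, and its highest value came from 1 sample.

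**Figure D3:**
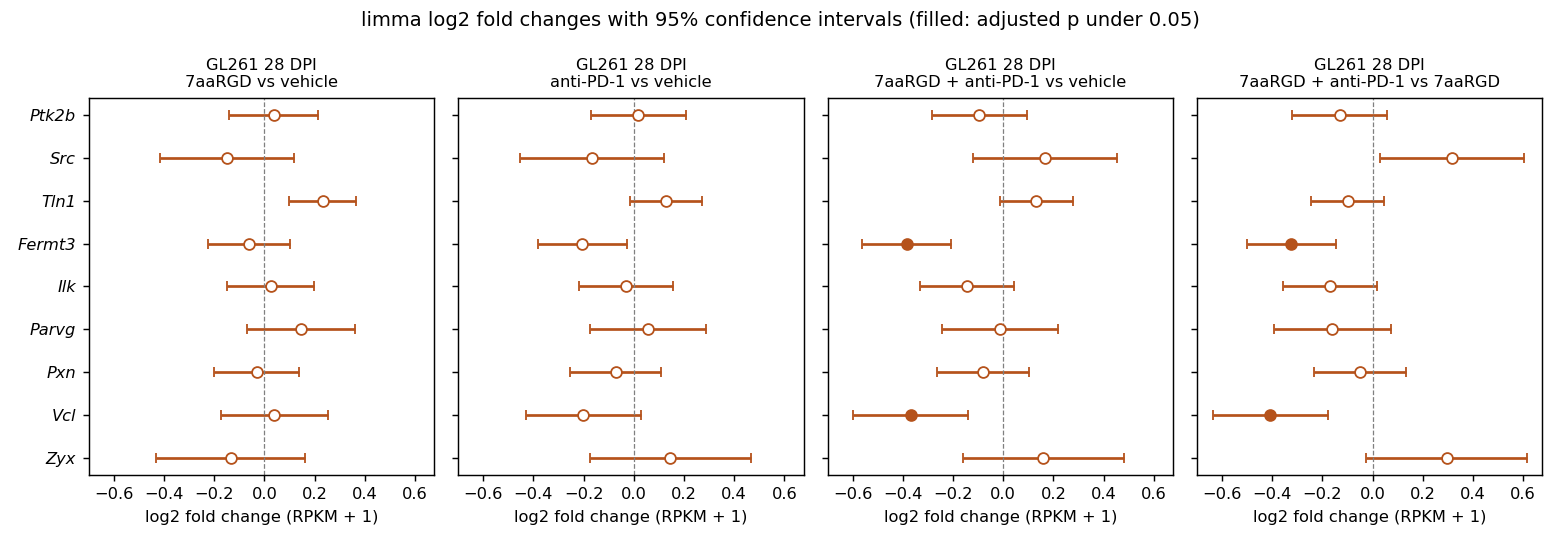
Log2 fold changes on the log2(RPKM + 1) scale of the 9 tested members (points, filled where the limma adjusted p was under 0.05) with 95% confidence intervals (bars) at 28 DPI. The filled points are Vcl (-0.37 and -0.41) and Fermt3 (-0.38 and -0.32) in the 2 panels of the combination.

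Besides Tln1, Fermt3 and Vcl, the members tested at 28 DPI had overlapping groups in the comparisons with vehicle, except Ptk2b with the combination. PYK2 measured 41.7, 39.7 and 41.2 RPKM there and 42.7 to 44.5 RPKM with vehicle, a log2 fold change of -0.09 ± 0.09. Zyxin ranged from 39.9 to 62.0 RPKM with vehicle and from 45.2 to 60.9 RPKM with the combination, gamma-parvin from 54.2 to 70.9 RPKM and from 56.1 to 67.7 RPKM, and paxillin from 21.4 to 27.0 RPKM and from 21.5 to 23.4 RPKM. Ptk2, under the filter, measured 0.223 to 0.318 RPKM with the combination and 0.379 to 0.500 RPKM with 7aaRGD alone, groups that did not overlap (log2 fold change without a filter -0.21 ± 0.07, limma adjusted p = 0.0516). The adjusted p of that difference lay between 0.0134 and 0.146 over 19 alternatives and was under 0.05 in 5, which left out vehicle replicate 3 or 4, 7aaRGD replicate 2, or anti-PD-1 replicate 1 or 3. Between the combination and vehicle the groups of Ptk2 overlapped (log2 fold change without a filter -0.18 ± 0.07, limma adjusted p = 0.0718). Without vehicle replicate 4 that adjusted p was 0.0371. With anti-PD-1 alone the value for Ptk2 was -0.13 ± 0.07 (adjusted p = 0.276), and the tested members lay between -0.20 (Fermt3) and 0.15 (Zyx). Ilk measured 43.4 to 50.3 RPKM with vehicle and 38.8 to 44.9 RPKM with the combination (-0.14 ± 0.09). In the interaction, the members other than Src and Tln1 lay between -0.22 and 0.15.

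Between 7aaRGD and vehicle the 3 experiments have separate controls, so each member has 3 separate estimates. Of the 9 tested members, 3 were estimated higher in all 3 experiments, 0 lower in all, and 6 had mixed signs. The same count over all genes was not made, so it has no background here. The 3 were Ptk2b (0.08, 0.04 and 0.12 for GL261 at 21 DPI, GL261 at 28 DPI and U87-MG), Tln1 (0.14, 0.23 and 0.03) and Vcl (0.21, 0.04 and 0.43), as log2 fold changes, none of which passed in any experiment. Where 0% of all genes was called, genes with an unadjusted p under 0.05 numbered 600 for 7aaRAE against vehicle and 520 for 7aaRGD against 7aaRAE in GL261, 794 for the interaction, and 364 for 7aaRGD against vehicle and 326 for 7aaRGD against 7aaRAE in U87-MG.

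Beyond the 10 members, 75 other genes of the adhesion pathway were counted by group. With tumor against naive brain, 28 of the 64 tested were higher and 31 lower, beside 82.9% of all genes called, and the median log2 fold change was -0.09. All 11 kinases and regulators of the FAK and Src family list passed (6 higher, 5 lower), as did all 15 actin linkers and LIM proteins (8 higher, 7 lower) and all 14 small GTPases and effectors (6 higher, 8 lower). Of 12 paxillin-type adaptors 2 were higher and 7 lower, and of 5 integrin inactivators 4 were higher and 1 lower. Fgr, a Src family kinase of myeloid cells, had the largest rise, from 3.70 ± 0.236 to 89.9 ± 6.93 RPKM (log2 fold change 4.27). Ezrin (Ezr), which links membrane to actin, rose from 3.24 ± 0.439 to 53.2 ± 5.42 RPKM, and the adaptor Dok2 from 1.29 ± 0.233 to 17.2 ± 8.21 RPKM. The largest falls were in Pag1, a membrane adaptor that recruits the Src inhibitor CSK (105 ± 3.50 to 15.2 ± 2.02 RPKM), in talin 2 (Tln2, 10.3 ± 0.379 to 1.07 ± 0.315 RPKM) and in Elmo1, a partner of the Rac activator DOCK1 (52.7 ± 1.59 to 10.2 ± 1.38 RPKM). Each value is a mean ± SD with n = 3.

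At 28 DPI the counts of the wider list stand beside the share of all genes called, which was 23.1% with anti-PD-1, 43.3% with the combination against vehicle and 36.6% against 7aaRGD. By direction, all genes gave 1054 higher and 1191 lower calls with anti-PD-1. The combination gave 1706 higher and 2508 lower against vehicle, and 1268 and 2292 against 7aaRGD. With 7aaRGD alone 0 of 64 genes were called, and likewise 0 for the combination against anti-PD-1 and 0 for the interaction. With anti-PD-1, 12 of 64 were higher and 2 lower, a count of 14 that fell to 6 without anti-PD-1 replicate 2, to 8 without anti-PD-1 replicate 1 and to 9 without vehicle replicate 2 or vehicle replicate 4. With the combination, 19 were higher and 6 lower against vehicle, and 15 higher and 8 lower against 7aaRGD. The LIM protein testin (Tes) rose from 4.16 ± 0.155 RPKM with vehicle (n = 4) to 8.67 ± 1.39 RPKM with the combination (n = 3). Talin 2 rose from 1.73 ± 0.489 to 3.55 ± 0.0520 RPKM. Ezrin fell from 57.7 ± 2.98 to 27.9 ± 3.08 RPKM (log2 fold change -1.03 ± 0.10, limma adjusted p = 6.94e-06), tensin 1 (Tns1) from 16.8 ± 2.45 to 9.38 ± 1.18 RPKM, and the leukocyte GTPase Rac2 from 103 ± 4.84 to 76.0 ± 5.53 RPKM. With anti-PD-1 alone, testin also rose and ezrin and tensin 1 fell, and Fyn, a Src family kinase, rose from 7.34 ± 0.495 to 10.6 ± 2.65 RPKM (limma adjusted p = 0.0286). The call of Fyn was lost without vehicle replicate 1 (0.0613), vehicle replicate 4 (0.0685) or anti-PD-1 replicate 1 (0.125), that of Tns1 without anti-PD-1 replicate 1 (0.0679), and that of Ezr without anti-PD-1 replicate 2 (0.0762) or 3 (0.0675), as adjusted p-values. Against 7aaRGD alone, the Cas family adaptor Nedd9 rose from 2.92 ± 0.211 to 6.26 ± 0.712 RPKM and Fgr from 30.9 ± 9.23 to 56.4 ± 10.5 RPKM, while Pag1 was called at 34.0 ± 9.47 against 22.1 ± 2.09 RPKM with overlapping groups and lost its call without any 1 of the combination samples (adjusted p 0.0695 to 0.128). The Pag1 call was also lost with no filter (limma adjusted p = 0.0726) and with median-of-ratios (0.0807) or upper-quartile factors (0.0566). Leaving out certain single samples of the vehicle, 7aaRGD and anti-PD-1 groups removed it as well. At 21 DPI, 0 of 63 genes in GL261 and 0 of 65 in U87-MG were called with either peptide.

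**Figure D4:**
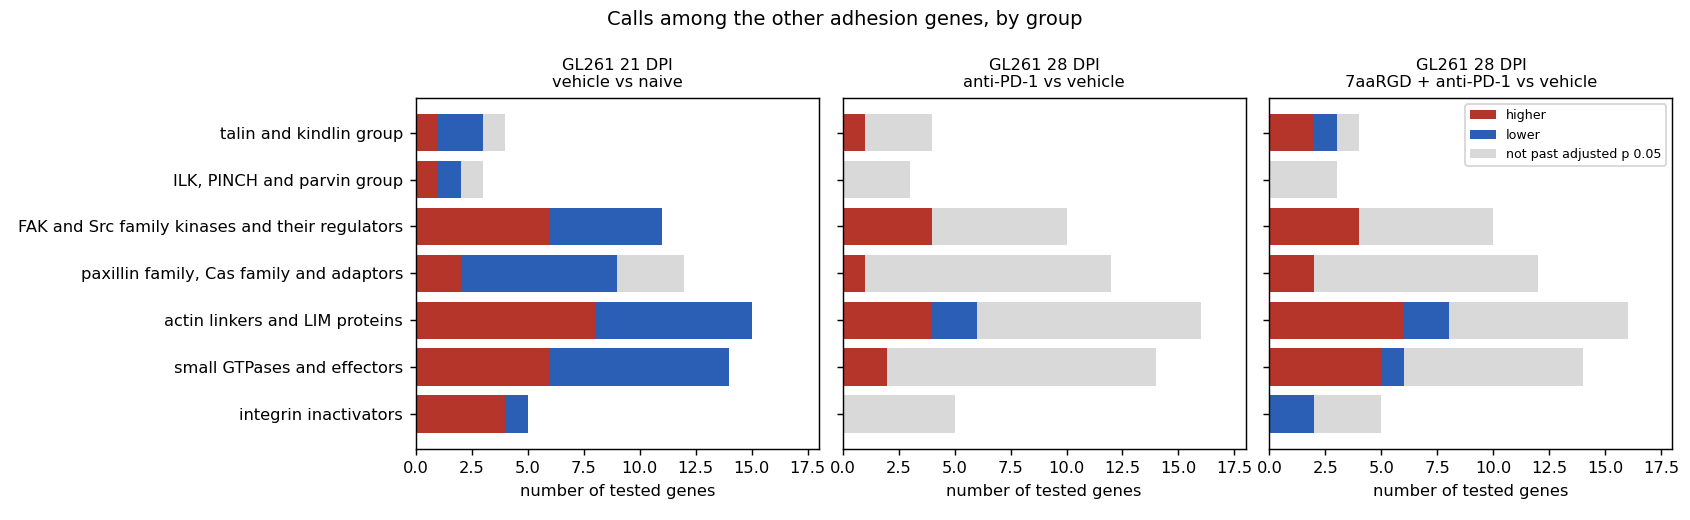
Number of tested genes (horizontal axis) of 7 groups of the wider adhesion list that were higher (red), lower (blue) or not past a limma adjusted p of 0.05 (grey). Against naive brain 59 of 64 genes passed, against vehicle 14 with anti-PD-1 and 25 with 7aaRGD + anti-PD-1.

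Across all 35 samples, centred within each experiment, Zyx and Parvg ran opposite to each other, with a Pearson r of -0.91 on log2(RPKM + 1), and of -0.74 over the 32 tumor-bearing samples. Ilk and Fermt3 ran together at 0.78. The genes most like Zyx among 9065 were Lrrc8c and Ehd1 (r of 0.96 for each), those most like Parvg were Slc46a1 and Trappc9 (0.93 for each), and those most like Fermt3 were Ap1b1 (0.92) and Dnase2a (0.91). For Pxn they were Arhgap45 (0.92) and Tbc1d17 (0.91), for Ptk2b Luzp1 (0.89) and Myo1c (0.87), and for Tln1 Huwe1 (0.82) and Ankrd17 (0.80). Vcl had Vps36 (0.75) and Spred2 (0.73), Ilk had Fermt3 and P2ry6 (0.77), and Src had the lowest, Mmp2 (0.65) and Ebi3 (0.63). These values describe the samples, which share the naive against tumor contrast, and carry no test.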

How the data were processed

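RNA of sorted CD11b+ cells was analysed in 35 samples of 3 experiments. Reads were trimmed (Trimmomatic), mapped to mm10 (STAR) and counted by the authors with HTSeq 0.11.1 (submitters' processing notes and the study's methods). The deposited values, made by the authors before deposit, were RPKM plus a constant of 2, as read from the values: genes with no signal sat at exactly 2, and values less 2, times exonic length, summed to between 987566 and 1006680 in every sample. The plan had allowed for normalized counts, and the log scale was kept. Between 3.13% and 8.78% of values per sample lay under the constant, so that values had been altered further. Read counts could not be recovered, so count tests were not run and depth is unknown. NOISeq, the study's test, was not run.

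The constant was subtracted. Symbols of 98.7% of rows matched GENCODE M21, and 21826 protein-coding genes were kept. log2(RPKM + 1) was fitted with limma 3.58.1 (R 4.3.3; lmFit, eBayes with trend) over genes whose mean over the fitted samples reached 1 RPKM, with Benjamini-Hochberg adjustment and a threshold of 0.05. Each experiment's tumor-bearing groups shared 1 fit, and naive was fitted with vehicle alone. Ptk2 missed the filter in every experiment and was read from a fit without it. The fit was tested on simulated data with independent noise and changes larger than those of most members. That test does not cover smaller differences or the missing dimension of the replicate differences. Replicate numbers were not used to pair the samples in the main fits. In GL261, residual correlations passed 0.1 in 1 of 9 same-numbered pairs at 21 DPI and 3 of 19 at 28 DPI. The lowest were -0.77 and -0.50. Because a dimension of the replicate differences is missing in both GL261 experiments, this check cannot exclude pairing.

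All 10 members were fitted in each comparison, and their values are given in part. From the wider list at most 3 genes in each direction were named, by the size of the called log2 fold change. A gene that this rule would name is not reported here. Genes were ranked by likeness over 35 samples. Markers of 14 cell types served as description. The members, lists and tests were chosen with earlier results of these data known. Alternatives were a pseudocount of 0.1 (negative values set to 0) or 5, no filter or a mean of 5 RPKM, median-of-ratios or upper-quartile factors on RPKM, leaving out each sample, a block for the replicate number, only the groups compared, and naive samples added. Chosen after seeing the data were a fit with 1 residual degree of freedom less and U87-MG without both columns that stood apart. P-values measure the spread between samples; those at 28 DPI were single mice.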

Additional observations from a re-analysis of the deposited data

How the results depend on the processing

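The counts of members called were recomputed under 260 alternatives, and 255 lay within 1.5 times the main count. In most comparisons the main count was 0, so an unchanged count there shows only that no call was gained. Calls could be lost only for vehicle against naive and for the combination against vehicle or against 7aaRGD. With upper-quartile factors the count for anti-PD-1 against vehicle was 1 in place of 0, since Fermt3 passed. With a filter at a mean of 5 RPKM it was 1 in place of 2 for the combination against vehicle and 1 against 7aaRGD, because Vcl falls under that filter. With each sample left out it ranged from 5 to 6 for vehicle against naive, from 0 to 1 for anti-PD-1 against vehicle (1 without 7aaRGD replicate 3), from 1 to 2 for the combination against vehicle (1 without its replicate 1), and from 2 to 3 against 7aaRGD. Of 2536 recomputed log2 fold changes of members, 12 lost and 13 gained a call, 97 changed sign without a call on either side, and none that was called changed sign; 10 of the 12 losses were Vcl against naive, where the replicate block gave an adjusted p of 0.0593 and 1 residual degree of freedom less 0.0707. The replicate block changed no other call of a member; no paired analysis was possible for U87-MG because its columns carry no replicate number. Counts over all genes moved more where few were called: for 7aaRGD at 21 DPI from 14 to between 0 and 120, and at 28 DPI from 63 to between 0 and 90 (0 with the replicate block). For the combination against anti-PD-1 they moved from 4 to between 0 and 26, and for 7aaRAE in U87-MG from 1 to between 0 and 32, while with vehicle against naive 5286 to 9939 were called in place of 8056 as the filter changed the genes tested, and for anti-PD-1 1357 to 2410 in place of 2245. Of the genes of the wider list named in the text, Pag1 against 7aaRGD (0.108) and Fyn with anti-PD-1 (0.0662) lost their call under the replicate block. Depth is unknown, so no limit of detection can be given for Ptk2.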

Other observations

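Marker sums of other cell types differed between the same groups. Neutrophil genes, 7 in all, summed to 269 to 404 RPKM in naive samples and 56.2 to 181 RPKM in vehicle samples at 21 DPI. Genes of platelets, in which talin and kindlin-3 are also abundant, summed to 56.6 to 64.1 RPKM in naive samples and 8.26 to 28.6 RPKM in vehicle samples. Only 2 of the 7 reached a mean of 1 RPKM in each group. The top gene was Gp9 in naive samples (mean 43.9 RPKM) and Pf4 in vehicle samples (mean 13.5 RPKM). Ppbp, Gp1bb and Gp6 were under 0.1 RPKM in both, so the sums do not stand for the list as a whole. The part of neutrophils and platelets in the members' values was not tested.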
